A study of Mus musculus with 8 samples.

Results

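Receptors for microbial molecules, their co-receptor Cd14 and the adaptor Myd88 were followed through sorted epithelial cells of the mouse intestinal crypt. The members were Cd14, Tlr1, Tlr2, Tlr3, Tlr4, Tlr5, Nod1, Nod2, Nlrp6 and Myd88, and every probe set annotated to exactly 1 of them was taken. That gave 13 of 45037 probe sets, for 9 of the 10 genes. Nod2 had no such probe set in the annotation used, so its expression was not analysed here.

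Cells were freed from the intestine of C57BL/6 mice and sorted by flow cytometry, and their RNA was measured on Affymetrix arrays as log2 RMA values. An antibody to the receptor EphB2, a surface protein graded along the crypt and strongest near its bottom, gave EphB2 High, EphB2 Medium and EphB2 Low cells, with 2 arrays each. Knock-in mice that carry EGFP in the gene of the stem cell receptor Lgr5 gave Lgr5 High and Lgr5 Low cells, with 1 array each. Both Lgr5 groups carry that allele, and green fluorescence reports the activity of the Lgr5 promoter. Replicate 1 of each EphB2 group was hybridized together and replicate 2 together, and the Lgr5 pair was hybridized apart from them. The labels state no age for the mice. Nothing in them says that replicates are different mice, so each p-value reflects only the spread among these arrays, which may be technical.

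Toll-like receptors bind microbial molecules at the cell surface or in endosomes and signal through a shared cytoplasmic domain. Tlr2 senses bacterial lipopeptides, in a pair with Tlr1 for some of them, Tlr4 senses lipopolysaccharide with the help of Ly96 and Cd14, Tlr5 senses flagellin, and Tlr3 senses double-stranded RNA in endosomes. All of these signal through Myd88 except Tlr3, which uses Ticam1. Nod1 is a cytosolic sensor of peptidoglycan fragments, and Nlrp6 is a cytosolic protein of the same NLR family that is abundant in intestinal epithelium. In the intestine these sensors sit close to a dense community of bacteria.

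Control regions are shown for Tlr2, Tlr3 and Nod1, which differed between EphB2 High and EphB2 Low cells, and for Myd88, the shared adaptor, as the member window that held the interferon-response core. RefSeq (build GRCm38.p6) gave windows of 250 bases before to 50 after a transcription start for 8 members, including Nod2 but not Tlr4. The windows numbered 10 in all. They were searched on both strands for 5 motifs: the kappaB consensus, the interferon-response core (GAAA repeated after a gap of 2 bases), the TCF/LEF core CTTTGAT, the TATA box TATAAA and the GC box GGGCGG. The kappaB consensus occurred in the windows of Tlr2 and Tlr3, against 4.5% of 32817 windows over all genes. The Tlr2 window held 3 matches, of which the first pair overlap each other by all but 1 base, and the Tlr3 window held 1. Each is printed as 30 bases on the minus strand with the match in capitals, at chr3:83841762-83841791 and chr3:83841597-83841626 for Tlr2 and at chr8:45410572-45410601 for Tlr3. These stretches lie inside the annotated genes, which reach upstream to chr3:83841824 and chr8:45411075. Distances are from the first base of a match, and the Tlr2 match at 8 bases runs across the start.
Tlr2, 173 bases before the start: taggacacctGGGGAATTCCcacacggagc
Tlr2, 8 bases before the start: ccctgacctgGGGACATCCCcttccctcac
Tlr3, 211 bases before the start: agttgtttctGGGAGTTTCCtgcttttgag

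The interferon-response core occurred in the window of Myd88, against 3.43% of all windows, together with a palindromic TATA stretch, read on both strands, and 1 GC box. TATA boxes were in 13.6% and GC boxes in 35.6% of all windows. The 250 bases before the Myd88 start, at chr9:119340019-119340268 on the minus strand, are printed with these matches in capitals. The part of the Nod1 window that lies outside the annotated gene, at chr6:54972675-54972862 on the minus strand, held none of the 5 motifs, and 1 GC box lay nearer the start, at 54 bases before it.
Myd88: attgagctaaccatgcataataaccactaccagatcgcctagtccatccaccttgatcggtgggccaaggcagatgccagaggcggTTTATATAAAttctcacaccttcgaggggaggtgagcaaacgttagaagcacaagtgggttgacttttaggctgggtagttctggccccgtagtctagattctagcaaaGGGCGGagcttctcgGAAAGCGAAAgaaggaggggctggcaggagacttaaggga
Nod1: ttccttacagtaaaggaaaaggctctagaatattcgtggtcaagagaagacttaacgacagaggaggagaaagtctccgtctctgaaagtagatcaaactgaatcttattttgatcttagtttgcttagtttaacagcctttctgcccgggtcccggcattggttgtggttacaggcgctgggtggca
The TCF/LEF core, the binding sequence of the factors that carry Wnt signals, was in 0 of the 10 windows and in 3.73% of all windows. These matches are letters in a window and say nothing of whether a factor binds there.

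The deposited table carries no detection calls, so a background level was set for each array. It was the 95th percentile of 144 probe sets for gene families not used in the intestine, such as olfactory receptors and keratin-associated proteins, and lay between 5.13 and 6.28 (log2) over the 8 arrays. Probe sets differ in their own background, so the level is a guide and does not show that a gene is off. Of the 13 member probe sets, 8 were above it on all 8 arrays (61.5%, against 46.0% of all probe sets): those of Cd14, Tlr1, Tlr2, Nod1, Nlrp6 and Myd88 and both of Tlr3. One Tlr4 probe set passed on 1 array, and the other 3 of Tlr4 and that of Tlr5 passed on 0. The closest of the 8 was Tlr2, which on EphB2 Low replicate 2 stood 0.15 above the level.

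**Figure D1:**
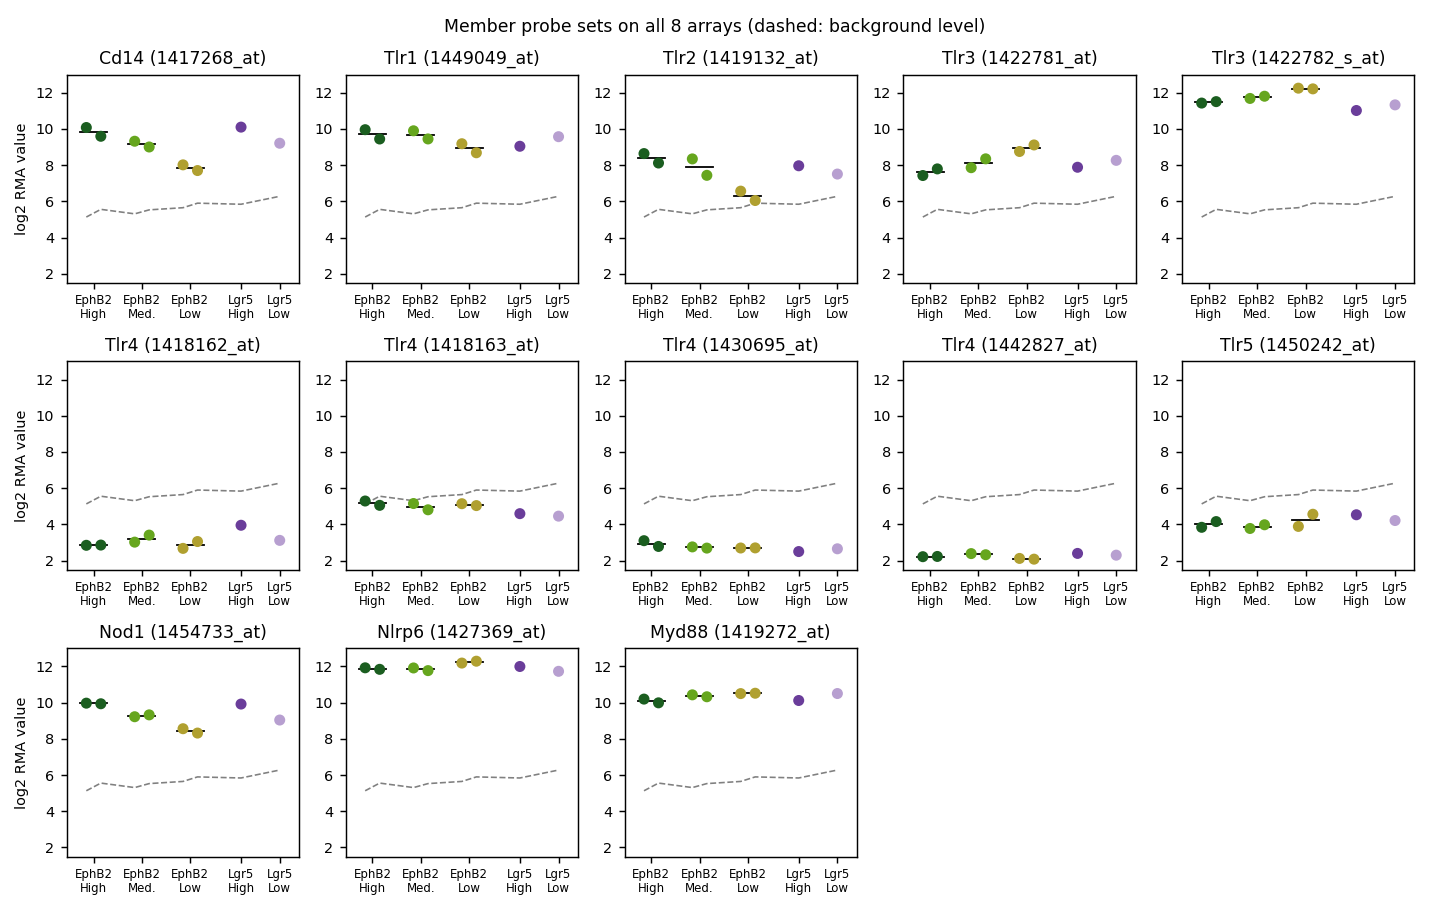
Log2 RMA value (vertical axis) of the 13 member probe sets on the 8 arrays, by sort group; points are single arrays, bars the means of 2 arrays and the dashed line the background level of each array. Cd14, Tlr2 and Nod1 are higher in EphB2 High than in EphB2 Low, both Tlr3 probe sets are lower, and all Tlr4 and Tlr5 points lie near or under the dashed line.

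EphB2 High against EphB2 Low sets the bottom of the sorted crypt against its upper end. Cd14, Tlr2 and Nod1 were higher in EphB2 High cells by 2.86- to 4.21-fold, and Tlr3 was lower on both of its probe sets. Limma, with Benjamini-Hochberg adjustment over all 45037 probe sets, called 5 of the 13 member probe sets (3 higher, 2 lower), beside 27.4% of all probe sets (15.4% higher, 11.9% lower). Among probe sets above background on all 8 arrays the share called was 42.6%, and the 5 calls fall among the 8 members of that kind. With the hybridization as a block, 6 were called beside 31.9%. Cd14, Tlr2 and Nod1 were among them (limma adjusted p = 0.00172, 0.00240 and 0.00340). The groups did not overlap on 10 of the 13, beside 62.9% of all probe sets. The median difference of the 13 was 0.08, beside -0.01 over all probe sets. In bulk RNA, fewer cells of a type and less RNA per cell cannot be told apart.

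Cd14 (mouse chromosome 18, 36725064 to 36726815), the surface protein that hands lipopolysaccharide to Tlr4, had log2 values of 10.07 and 9.59 in EphB2 High, 9.32 and 8.999 in EphB2 Medium and 8.01 and 7.70 in EphB2 Low cells. No EphB2 group overlapped another, and the levels ran High, Medium, Low. The difference between EphB2 High and EphB2 Low was 1.98 (log2, 3.94-fold) with an SE of 0.23 from 2 arrays in each group (adjusted p = 0.00296 by limma); errors after ± below are such SEs. Between EphB2 Medium and EphB2 Low it was 1.30 ± 0.23 (adjusted p = 0.0197), and between EphB2 High and EphB2 Medium 0.67 ± 0.23, which did not pass (adjusted p = 0.398). The call of High against Low held whichever array was left out. That of Medium against Low was lost without EphB2 Medium replicate 1 (adjusted p = 0.0924), EphB2 Medium replicate 2 (0.0796) or EphB2 Low replicate 2 (0.0951).

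Tlr2 (chromosome 3, 83836272 to 83841824) had log2 values of 8.64 and 8.11 in EphB2 High, 8.34 and 7.43 in EphB2 Medium and 6.56 and 6.04 in EphB2 Low cells. The High and Medium arrays overlapped, and the Low arrays lay below both, close to the background level. EphB2 High exceeded EphB2 Low by 2.07 ± 0.36 (4.21-fold, limma adjusted p = 0.00988), by the same amount within each hybridization (2.07 and 2.07). EphB2 Medium exceeded EphB2 Low by 1.59 ± 0.36 (adjusted p = 0.0382), and High against Medium did not pass (0.49 ± 0.36, adjusted p = 0.737). The call of High against Low was lost without EphB2 High replicate 1 (0.0552) or EphB2 Low replicate 2 (0.0597), and that of Medium against Low whichever of the 6 arrays was left out (0.0618 to 0.175).

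Tlr1 (chromosome 5, 64924680 to 64933600), the partner of Tlr2, had 9.95 and 9.44 in EphB2 High, 9.89 and 9.44 in EphB2 Medium and 9.18 and 8.68 in EphB2 Low cells. High and Medium arrays overlapped, and both Low arrays lay below them. In each group replicate 1 was brighter than replicate 2, by 0.51, 0.45 and 0.50 in High, Medium and Low. Without the hybridization in the fit, the difference between High and Low, 0.77 ± 0.27, did not pass (limma adjusted p = 0.0943). With the hybridization as a block it passed (adjusted p = 0.00879), and so did Medium against Low (0.74, adjusted p = 0.138 without and 0.0195 with the block). Within the first and second hybridization, High exceeded Low by 0.78 and 0.76.

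Nod1 (chromosome 6, 54923942 to 54972674) had 9.97 and 9.94 in EphB2 High, 9.22 and 9.32 in EphB2 Medium and 8.56 and 8.32 in EphB2 Low cells. No group overlapped another, and the levels ran High, Medium, Low with steps of similar size. High exceeded Low by 1.51 ± 0.14 (2.86-fold, limma adjusted p = 0.00181), a call that held whichever array was left out. Medium exceeded Low by 0.83 ± 0.14 (adjusted p = 0.0188), and High exceeded Medium by 0.68 ± 0.14, which did not pass (adjusted p = 0.186). The call of Medium against Low was lost without EphB2 Medium replicate 1 (0.0782), EphB2 Medium replicate 2 (0.107) or EphB2 Low replicate 2 (0.0755).

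Tlr3 (chromosome 8, 45395665 to 45411075), the endosomal receptor of double-stranded RNA, ran the other way. Its brighter probe set, whose name marks it as shared between transcripts, had 11.42 and 11.50 in EphB2 High, 11.68 and 11.80 in EphB2 Medium and 12.25 and 12.21 in EphB2 Low cells. Its other probe set had 7.42 and 7.79 in EphB2 High, 7.86 and 8.35 in EphB2 Medium and 8.75 and 9.11 in EphB2 Low cells. On both, no group overlapped another and the levels ran Low, Medium, High. The difference between High and Low was -0.76 ± 0.13 on the brighter probe set (limma adjusted p = 0.00855) and -1.32 ± 0.24 on the other (adjusted p = 0.0110). Medium against Low did not pass on either (-0.49, adjusted p = 0.0554, and -0.83, adjusted p = 0.0719) but passed with the hybridization as a block (0.0496 and 0.0173). The brighter probe set lost its High against Low call without EphB2 High replicate 1 (0.0534), and the other without EphB2 High replicate 1 (0.0608) or EphB2 Low replicate 2 (0.0614).

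Nlrp6 and Myd88 spanned the smallest ranges of the members above background, 0.56 and 0.53 over the 8 arrays. Nlrp6 (chromosome 7, 140920902 to 140929192) had 11.92 and 11.84 in EphB2 High, 11.91 and 11.77 in EphB2 Medium and 12.18 and 12.29 in EphB2 Low cells. Its Low arrays lay above all others, but the difference of -0.36 ± 0.13 between High and Low did not pass (limma adjusted p = 0.106). Myd88 (chromosome 9, 119335934 to 119340018) had 10.19 and 9.99 in EphB2 High, 10.43 and 10.32 in EphB2 Medium and 10.50 and 10.52 in EphB2 Low cells. No group overlapped another, and the difference between High and Low was -0.42 ± 0.14, which did not pass (adjusted p = 0.0754). It passed when dim probe sets were removed (0.0421), with 1 probe set per gene (0.0446) and with a variance trend (0.0408), and Nlrp6 passed with the trend only (0.0199).

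Tlr4 (chromosome 4, 66827551 to 66846581) and Tlr5 (chromosome 1, 182954752 to 182976044) gave no level that could be told from background. The brightest of the 4 Tlr4 probe sets had 5.29 and 5.05 in EphB2 High, 5.15 and 4.81 in EphB2 Medium and 5.14 and 5.04 in EphB2 Low cells, and only EphB2 High replicate 1 was above its array's level. The other 3 had group means between 2.10 and 3.21. The Tlr5 probe set had 3.84 and 4.16 in EphB2 High, 3.78 and 3.98 in EphB2 Medium and 3.89 and 4.56 in EphB2 Low cells, with all groups overlapping. Limma called 0 of these 5 probe sets in any EphB2 comparison, with High minus Low differences between -0.23 and 0.24.

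**Figure D2:**
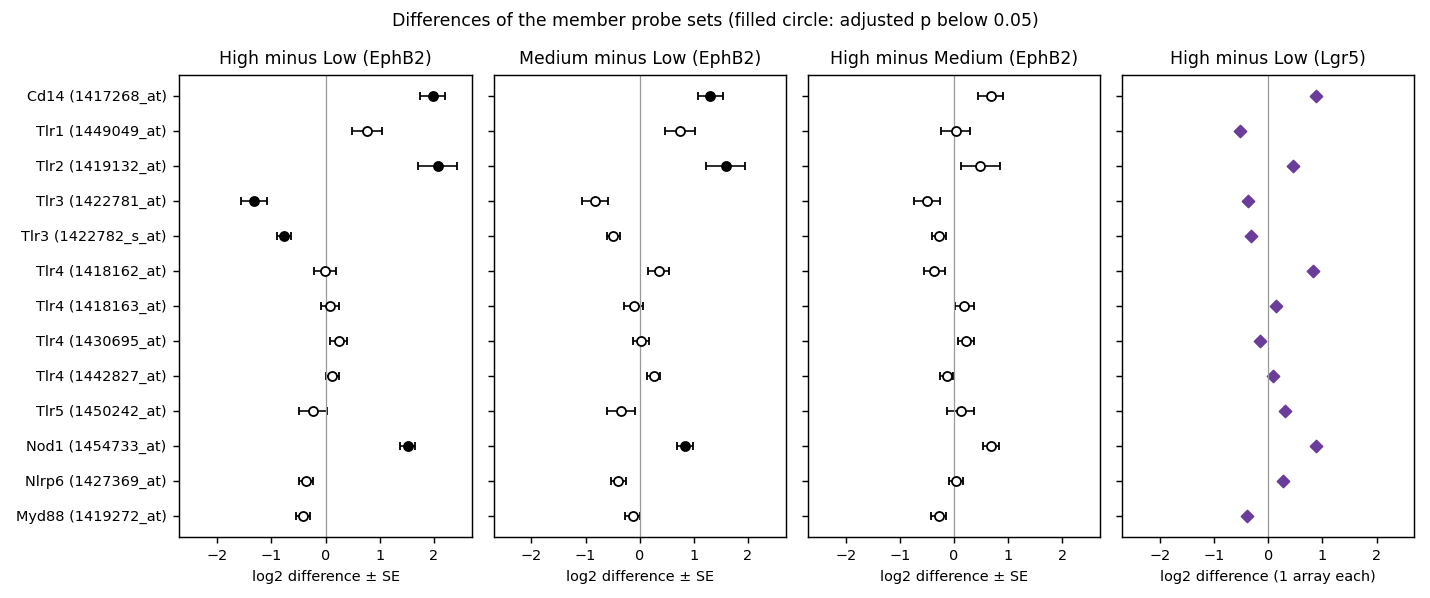
Log2 difference (horizontal axis) of each member probe set in the 3 EphB2 comparisons, with limma's SE from 2 arrays per group, and in the Lgr5 pair, which has 1 array per group and no error. Filled circles passed at an adjusted p below 0.05: 5 for High minus Low, 3 for Medium minus Low and 0 for High minus Medium.

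EphB2 Medium cells, set against EphB2 Low cells, had 3 of the 13 probe sets called, all higher (Cd14, Tlr2 and Nod1), beside 15.3% of all probe sets (8.54% higher, 6.78% lower). The groups did not overlap on 9, beside 56.4%. With the hybridization as a block 6 were called, 4 higher and 2 lower, beside 19.3% of all probe sets with the block. Between EphB2 High and EphB2 Medium limma called 0 of the 13, beside 0.3% of all probe sets (0.0178% higher, 0.282% lower), and the groups did not overlap on 8, beside 42.2%. The same count of 0 came from every alternative fit, and 2 of the 13 had an unadjusted p below 0.05. Within both hybridizations, Cd14, Tlr2 and Nod1 fell from High to Medium and from Medium to Low. Both Tlr3 probe sets and Myd88 rose at each of those steps. How many of all probe sets keep such an order was not counted. For Cd14, High exceeded Medium by 0.76 and 0.59 and Medium exceeded Low by 1.30 and 1.30 in the first and second hybridization. For Nod1, High exceeded Medium by 0.75 and 0.61 and Medium exceeded Low by 0.66 and 1.005.

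The Lgr5 reporter pair asks whether the sensors follow the stem cell marker itself. The Lgr5 probe set had 10.15 on the Lgr5 High array and 5.75 on the Lgr5 Low array. With 1 array per group there is no test, and 0 of the 13 member probe sets reached a 2-fold difference, beside 6.99% of all probe sets. At 1.5-fold there were 3, those of Cd14 and Nod1 and a Tlr4 probe set under background, beside 19%. Cd14 had 10.10 in Lgr5 High and 9.21 in Lgr5 Low cells (a difference of 0.89), and Nod1 had 9.92 and 9.04 in the same order (0.88). Tlr2 had 7.96 in Lgr5 High and 7.51 in Lgr5 Low cells (0.46). Both Tlr3 probe sets were lower in Lgr5 High, at 11.01 against 11.33 in Lgr5 Low (-0.31) and 7.88 against 8.26 (-0.38). Myd88 had 10.12 in Lgr5 High and 10.50 in Lgr5 Low cells (-0.38). These 5 genes had the sign they had between EphB2 High and EphB2 Low.

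Tlr1 and Nlrp6 had the opposite sign in the Lgr5 pair. Tlr1 had 9.04 in Lgr5 High and 9.57 in Lgr5 Low cells (-0.53), against 0.77 for EphB2 High minus EphB2 Low, which did not pass without the block. Nlrp6 had 11.99 in Lgr5 High and 11.73 in Lgr5 Low cells (0.27), against -0.36 in the EphB2 sort. Among all probe sets above background on all 8 arrays, 20.1% reversed in the Lgr5 pair the sign they had in both EphB2 hybridizations. The difference between the sorts was not tested.

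Genes with the most similar profile to a member were found by the root mean square difference over the 8 arrays, after each probe set's own mean was subtracted, among 18192 other genes. For Cd14 they were Cd320, Maged1 and Tmem9, at 0.14, 0.14 and 0.16, where the median gene was at 0.84. For Tlr2 they were Nup133, Zmynd19 and Fbxo5 (0.20, 0.20 and 0.23), and for Nod1 Zdhhc15, 1500011B03Rik and Traf5 (0.091, 0.094 and 0.097). For the brighter Tlr3 probe set they were Trafd1, Ctdspl and Lpar1 (0.042, 0.058 and 0.061), and for Tlr1 Helb, Cd79b and Fry, all at 0.16. Cd79b, a gene of the B cell receptor complex, belongs to the lymphocyte markers. Other B cell genes of that list did not follow it between EphB2 High and EphB2 Low. Cd79a, above background on 2 arrays, differed by 0.34 (limma adjusted p = 0.418). Ms4a1, above background on 0 arrays, differed by -0.32. Nlrp6 and Myd88 varied too little for this search.

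Cells of other types carry some of these sensors, and Cd14 and Tlr2 are classical genes of macrophages. Of 19 myeloid markers, 2 were above background on all 8 arrays (Lyz2 and Cd68) and 13 on 0. The macrophage genes Mrc1 and C1qa were above it on 4 arrays each, Csf1r on 3 and Fcer1g on 1. Those on 0 were Adgre1, Fcgr1, Cd163, C1qb, C1qc, Itgam, Itgax, Tyrobp, Cx3cr1, Aif1, Ccr2, S100a8 and S100a9. Cd68, a lysosomal protein, differed by 1.44 (limma adjusted p = 0.0471; lost without EphB2 High replicate 1, 0.197, EphB2 High replicate 2, 0.0790, or EphB2 Low replicate 2, 0.203, and with quantile normalization, 0.0602). Lyz2 differed by 0.65 (adjusted p = 0.0324; lost without any 1 of the High or Low arrays, 0.0676 to 0.144). Mrc1, a mannose receptor, differed by -1.18 (adjusted p = 0.00927; 0.0536 without EphB2 Low replicate 2). With the hybridization as a block, Cd68, Lyz2 and Mrc1 all passed (limma adjusted p = 0.00278, 0.0194 and 0.0149). The summed linear signal of the 19 was 1854 to 1971 in EphB2 High, 1560 to 1634 in EphB2 Medium and 1338 to 1384 in EphB2 Low cells. It was 2505 in Lgr5 High and 5535 in Lgr5 Low cells. Lyz2 alone supplied most of that sum on every array, so the sum is not a measure of the whole list. Its log2 values were 10.31 and 10.35 in EphB2 High, 9.58 and 9.78 in EphB2 Low, 10.93 in Lgr5 High and 12.27 in Lgr5 Low cells. Without Lyz2 and Cd68, removed after their values were seen, the sum was 332.5 to 362.9 in EphB2 High, 332.8 to 363.3 in EphB2 Medium and 431.1 to 441.9 in EphB2 Low cells. It was 349.0 in Lgr5 High and 410.1 in Lgr5 Low cells. The 17 markers left include the 13 under background on all arrays, so this sum rests on few genes. Among them, Mrc1 had log2 values of 6.09 and 5.59 in EphB2 High, 5.21 and 5.40 in EphB2 Medium and 6.95 and 7.10 in EphB2 Low cells. The part of Lyz2- or Cd68-bearing cells in the higher Cd14 and Tlr2 of EphB2 High cells was not tested.

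**Figure D3:**
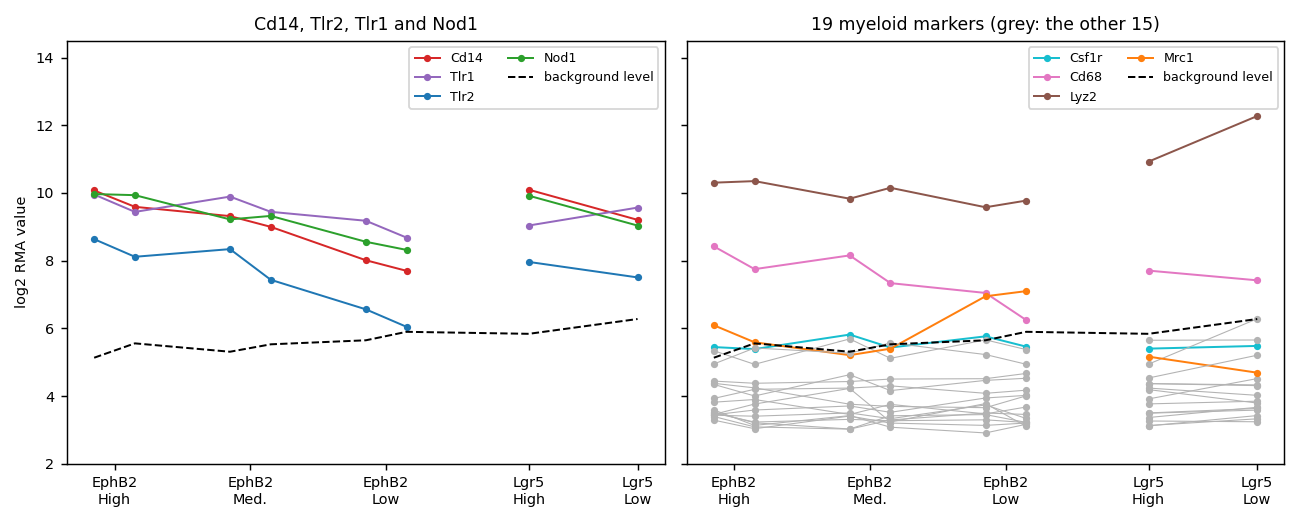
Log2 RMA value by array of Cd14, Tlr2, Tlr1 and Nod1 (left) and of the 19 myeloid markers (right), with the background level dashed. Lyz2 and Cd68 stand above the dashed line on all 8 arrays, and 13 markers stay under it throughout.

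Many markers of the crypt's own cell types differed in the same comparison. Between EphB2 High and EphB2 Low, limma called 10 of 10 stem cell markers higher, 7 of 8 Paneth cell markers higher, 3 of 7 tuft cell markers higher and 11 of 11 enterocyte markers lower. Over all 18193 genes, with 1 probe set each, 19.6% were called higher and 13.2% lower. The lists named 14 Paneth and 10 tuft markers, and only those with a single-gene probe set were counted. Goblet markers split (3 higher and 3 lower of 10), 5 of 10 enteroendocrine markers were lower and 1 higher, and 0 of 6 general epithelial markers were called, with a median difference of -0.06. Of 15 lymphocyte markers 1 was higher and 3 lower, and of 12 stromal and endothelial markers 0 were called. With the block, which called 31.9% of all probe sets, 2 of those 12 were lower, both named after their values were seen. They were Vim (-1.14, limma adjusted p = 0.0106 with the block and 0.314 without) and Col1a2 (-0.51, 0.0450 with the block). Col1a2 was above background on 0 arrays, so its difference lies among values under that level. In the Lgr5 pair the median difference was 1.20 for stem cell, -0.48 for Paneth, -1.09 for tuft and -3.64 for enterocyte markers. The part of any of these cell types in the members' differences was not tested.

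The genes that work with the members were taken as 9 lists, in which 85 of 101 genes had a single-gene probe set. The brightest probe set stood for each gene, and rose and fell are said here of EphB2 High relative to EphB2 Low cells. Between EphB2 High and EphB2 Low, limma called 9 higher (10.6%) and 25 lower (29.4%), beside 19.6% and 13.2% of all 18193 genes. The median difference was -0.25, beside 0.01 over all genes. Enterocyte markers were lower in the same comparison, and their part in these counts was not tested.

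**Figure D4:**
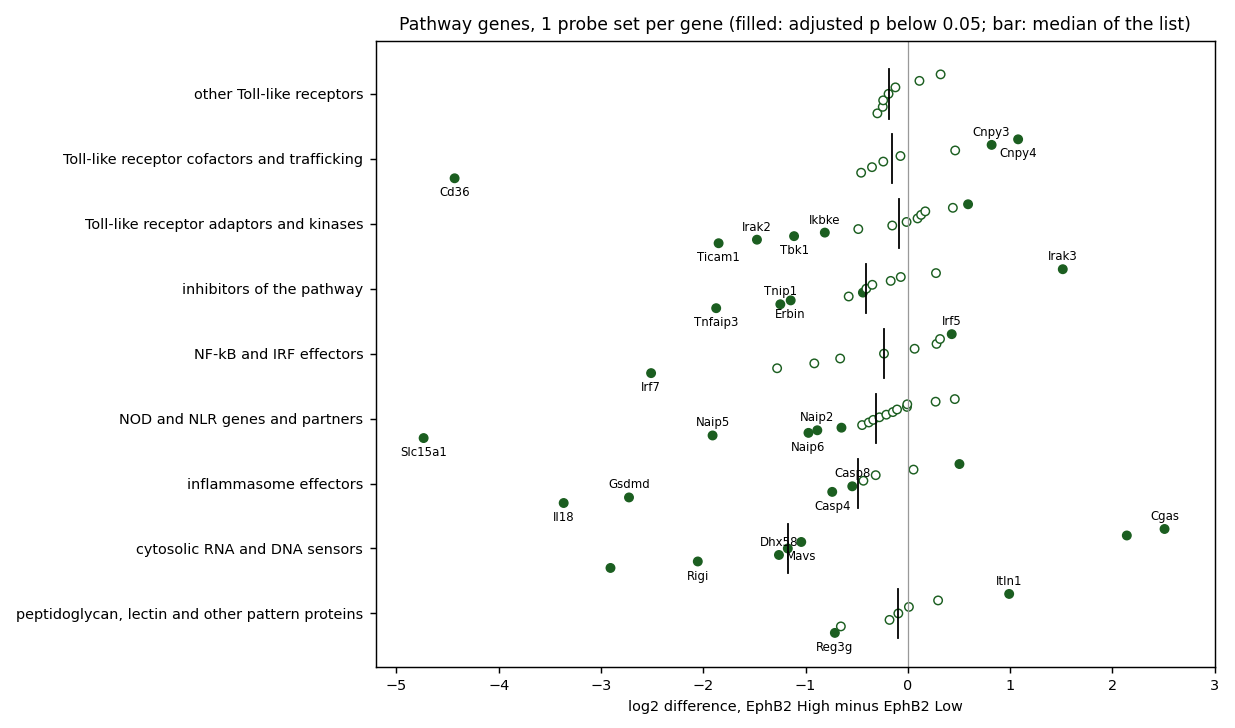
Log2 difference between EphB2 High and EphB2 Low (horizontal axis) for 85 pathway genes in 9 lists; each point is 1 gene, filled where the adjusted p was below 0.05, and the bar is the list's median. The cytosolic sensor list is filled throughout, with 5 genes on the left and 2 on the right.

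Of 7 other Toll-like receptor genes, 0 were called (limma; 0 with the block), and 6 were above background on 0 arrays; Tlr12 was above it on all 8. Tlr6, Tlr12, Tlr13 and Cd180 differed by between -0.30 and 0.32. Among 8 cofactors, the lipid receptor Cd36 fell by 4.43 (SE 0.26, adjusted p = 0.000555). Its EphB2 High arrays read 5.15, just above the background level, and 4.72, under it, so the size of that fall is uncertain. The chaperone-like Cnpy4 and Cnpy3, which handle Toll-like receptors in the endoplasmic reticulum, rose by 1.08 and 0.82. The call of Cnpy3 (adjusted p = 0.0199) was lost without EphB2 High replicate 1 (0.0945), EphB2 High replicate 2 (0.0860) or EphB2 Low replicate 2 (0.0654). Ly96, the protein that Tlr4 needs to bind lipopolysaccharide, had 9.98 and 10.09 in EphB2 High and 10.43 and 10.55 in EphB2 Low cells. The arrays did not overlap, and the difference of -0.46 did not pass (adjusted p = 0.0534; 0.0279 to 0.0401 in the 4 alternatives that called it).

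Of 12 adaptors and kinases, 1 rose and 4 fell. Ticam1, the adaptor of Tlr3, had 7.55 and 8.13 in EphB2 High, 8.34 and 8.56 in EphB2 Medium and 9.52 and 9.86 in EphB2 Low cells. Its groups did not overlap, and EphB2 High was lower than EphB2 Low by a log2 difference of -1.85 (SE 0.24, limma adjusted p = 0.00394); Tlr3 was lower in EphB2 High too. The kinases Irak2, Tbk1 and Ikbke fell by 1.48, 1.11 and 0.81, of which Ikbke lost its call without EphB2 High replicate 2 (0.0685) or EphB2 Low replicate 2 (0.0514). Irak1, named after its value was seen, rose by 0.59 (adjusted p = 0.0249), a call lost without any 1 of the High or Low arrays (0.0534 to 0.121).

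Of 11 inhibitors, 4 fell and 1 rose. Tnfaip3, a ubiquitin-editing brake on NF-kB, fell by 1.87 (limma adjusted p = 0.00476), Tnip1 by 1.25 and Erbin, an interactor of Nod2, by 1.15. Tollip, named after its value was seen, fell by 0.44 (adjusted p = 0.0427), a call lost whichever array was left out (0.0823 to 0.173). Irak3, an inactive kinase that restrains Toll-like receptor signals, was higher in EphB2 High cells (adjusted p = 0.00835). It had 6.22 and 6.74 in EphB2 High and 4.92 and 5.01 in EphB2 Low cells. Both Low arrays were under the background level, against which EphB2 High was at least 1.63-fold higher. In the Lgr5 pair it had 5.78 in High and 6.84 in Low. Of 9 NF-kB and IRF genes, Irf7, an interferon-induced transcription factor, fell by 2.51 (SE 0.29, adjusted p = 0.00309). Irf5 rose by 0.43 (adjusted p = 0.0460), a call lost whichever array was left out (0.0888 to 0.168) and with quantile normalization (0.0676). Relb and Ikbkg differed by -0.66 and 0.31 and did not pass. Relb passed in limma with the block (adjusted p = 0.0299) and with quantile normalization (0.0352). It also passed with dim probe sets removed (0.0342), 1 probe set per gene (0.0346) and a variance trend (0.0268). With the block, 1 gene of this list rose and 4 fell.

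Of 16 NOD and NLR genes and partners, 5 fell and 0 rose. The peptide transporter Slc15a1, which can carry NOD ligands into enterocytes, had 7.04 and 8.61 in EphB2 High and 12.53 and 12.58 in EphB2 Low cells. It fell by 4.73 (SE 0.49, limma adjusted p = 0.00228), and by 3.95 without EphB2 High replicate 1 and it fell by 5.52 without EphB2 High replicate 2. Naip5, Naip6 and Naip2, cytosolic receptors of bacterial flagellin and secretion proteins, fell by 1.91, 0.97 and 0.89. These genes are near-identical copies, so their probe sets can share signal. Birc3, named after its value was seen, fell by 0.65 (adjusted p = 0.0139; lost without EphB2 High replicate 1, 0.0636, EphB2 High replicate 2, 0.0843, or EphB2 Low replicate 2, 0.0606).

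Of 8 inflammasome effectors, 4 fell and 1 rose. The cytokine Il18 had 9.98 and 9.38 in EphB2 High, 11.89 and 11.66 in EphB2 Medium and 12.97 and 13.12 in EphB2 Low cells, a log2 difference of -3.37 for High minus Low (SE 0.23, limma adjusted p = 0.000776). The pore-forming protein Gsdmd fell by 2.73 (SE 0.18, adjusted p = 0.000712). Casp4 and Casp8 fell by 0.74 and 0.54, and lost their calls without EphB2 High replicate 2 (0.132 and 0.114) or EphB2 Low replicate 2 (0.106 and 0.0857); Casp8 also without EphB2 High replicate 1 (0.102) or EphB2 Low replicate 1 (0.0594). Aim2, named after its value was seen, rose by 0.50 (adjusted p = 0.0316), a call lost whichever array was left out (0.0595 to 0.132). Between EphB2 High and EphB2 Medium, Il18 had a log2 difference of -2.10 (adjusted p = 0.0461), a call lost with the block (0.0599) and whichever array was left out. Il1b was above background on 0 arrays.

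All 7 cytosolic RNA and DNA sensor genes were called, 5 lower and 2 higher, with the same counts with the block. The RNA helicase Rigi, listed in the annotation as Ddx58, had 7.86 and 7.94 in EphB2 High and 9.71 and 10.19 in EphB2 Low cells, a log2 difference of -2.05 for High minus Low (SE 0.19, limma adjusted p = 0.00184). Dhx58 fell by 1.26 and the shared adaptor Mavs by 1.04. Ifih1 and Zbp1, named after their values were seen, fell by 1.17 and 2.91. Cgas, the cytosolic DNA sensor, ran the other way, with 10.47 and 10.42 in EphB2 High, 9.96 and 9.87 in EphB2 Medium and 8.35 and 7.51 in EphB2 Low cells (2.51 ± 0.27, adjusted p = 0.00263). Sting1, its downstream adaptor, named after its value was seen, rose by 2.14 (adjusted p = 0.0101; 0.0570 without EphB2 High replicate 1). Its EphB2 Low replicate 2, at 5.32, was under the background level, so the size of that rise is uncertain. In the Lgr5 pair, Rigi and Mavs differed by -0.49 and -0.43 and Cgas and Sting1 by 0.58 and 1.16.

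Of 7 peptidoglycan-binding, lectin and related genes, 1 rose and 1 fell. The lectin Itln1, a Paneth cell product, rose by 0.99 (limma adjusted p = 0.00857; 0.0603 without EphB2 High replicate 2). The bactericidal lectin Reg3g fell by 0.71 (adjusted p = 0.0436), a call kept only without EphB2 High replicate 1 when an array was left out (0.0674 to 0.182 for the other 5). Reg3b and Pglyrp1 differed by -0.66 and 0.30 and did not pass (limma adjusted p = 0.0615 and 0.188). Reg3b passed with the block (0.0336), dim probe sets removed (0.0421), 1 probe set per gene (0.0431) and a variance trend (0.0143). Pglyrp1 passed with the trend (0.0383).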

How the data were processed

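The deposited values are on a log2 scale and were made with RMA, per the submitters' processing notes; RMA by definition corrects background, equalizes the arrays' distributions by quantiles and summarizes each probe set. Its version, and whether the 8 arrays were normalized together, are not given in the sources used here. Quantile normalization hides any shift of total RNA. Of 45101 probe sets, 64 controls were left out. A table of platform annotation named 1 gene for 34945, several for 932 and none for 9160; 34741 of the first were found in RefSeq by gene ID.

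Limma 3.58.1 (R 4.3.3; lmFit, contrasts.fit, eBayes, 2-sided) used the 6 EphB2 arrays and the sort group alone (3 residual degrees of freedom) and Benjamini-Hochberg adjustment over 45037 probe sets; a call needed an adjusted p below 0.05. It was also run on simulated data, in which the noise was independent between arrays. That run does not show how the calls fare where arrays deviate together. Replicate numbers mark a shared hybridization in the labels, and deviations of same-numbered arrays correlated at 0.45, 0.13 and 0.21 across genes, so they pair the arrays; a fit with the hybridization as a block was also run. Calls and counts given without mention of the block leave this pairing out. Other alternatives were a further quantile normalization, removal of dim probe sets, 1 probe set per gene, a variance trend and leaving out each array. For arrays, their number limits the precision.

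Named genes were the members, up to 4 genes of smallest p per pathway list and up to 3 per marker list, and the 3 nearest profiles for members spanning at least 1 (log2). Cell type markers other than the myeloid ones are given as counts, with exceptions marked in the text. The Cd14 promoter was not used here. Members and lists were chosen with earlier results of these data known. A planned comparison of protein sequences was not run, because no protein table was at hand.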

Additional observations from a re-analysis of the deposited data

Results flagged for a closer look

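Of the 13 member probe sets, 4 moved one way in both EphB2 hybridizations and the other way in the Lgr5 pair, beside 21.6% of all probe sets. Of the 8 members above background on all 8 arrays, 2 did so, beside 20.1% of all probe sets of that kind. In none of the 4 was the difference between the sorts tested. Tlr1 differed by -0.53 between Lgr5 High and Lgr5 Low, against 0.78 and 0.76 between EphB2 High and EphB2 Low in the first and second hybridization. Nlrp6 differed by 0.27 in the Lgr5 pair, against -0.26 and -0.45 in the EphB2 hybridizations. The other pair lay under background on all 8 arrays: a Tlr4 probe set at -0.15 in the Lgr5 pair, against 0.40 and 0.08, and Tlr5 at 0.32, against -0.05 and -0.40.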

How the results depend on the processing

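The direction of every call among the 13 member probe sets was the same under each alternative run. With the replicate block, members called numbered 6 for EphB2 High against Low and 6 for Medium against Low; beyond the Tlr1 and Tlr3 results given above it changed no other member's call. For Medium against Low a variance trend called 5 members, and 2 of these were lower. With 1 array left out, members called ranged from 2 to 5 for High against Low, from 0 to 2 for Medium against Low and from 0 to 0 for High against Medium. Over all probe sets, leaving out 1 array gave 5898 to 10728 calls for High against Low (12335 with all arrays), 531 to 6240 for Medium against Low (6900) and 0 to 0 for High against Medium (135). With 1 probe set per gene, and so fewer features tested, the counts were 6792, 4489 and 248. High against Medium gave 81 with the replicate block and 470 with the trend. In the Lgr5 pair 3 member probe sets, those of Cd14 and Nod1 and 1 of Tlr4 under background, passed 0.58 on the log2 scale. Above background, 7 member probe sets remained on all 8 arrays at the 99th percentile of the silent families and 7 at the median of all probe sets; in both Tlr2 dropped out. The causes were not tested. Signal over background limits Tlr4, Tlr5 and, in EphB2 Low cells, Tlr2.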
